A study of Mus musculus with 8 samples.

Results

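Hemoglobin carries oxygen in red blood cells as a tetramer of alpha and beta chains, each holding a heme group. The adult mouse has a pair of alpha genes, Hba-a1 and Hba-a2, and, in C57BL/6 mice, a pair of beta genes named Hbb-bs and Hbb-bt. Alas2 encodes the erythroid form of 5-aminolevulinate synthase, which performs the first step of heme synthesis in red cell precursors, whereas Alas1 performs it in other cells. Reticulocytes still hold globin mRNA after leaving the bone marrow, so blood left in brain vessels or spilled into tissue contributes these transcripts, and low hemoglobin expression by neurons has been described as well.

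These 5 genes were chosen by name, and all 5 were found once in each of the 2 deposited tables, which list 54532 genes for the PTS + RS and RS libraries and 28229 genes for the RGFP109 and vehicle libraries. RNA-seq was analysed in 8 libraries of C57BL/6 mouse brain taken on Day 21, with 2 libraries in each of 4 groups. RS mice received restraint stress alone. PTS + RS mice received a photothrombotic stroke, in which Rose Bengal is activated by light to clot the vessels of the right cortex, and the same restraint stress. RGFP109 mice were PTS + RS mice given the HDAC3 inhibitor RGFP109 subcutaneously at 60 mg/kg daily, and vehicle mice were PTS + RS mice whose libraries carry the name NaCl. By the study's methods the mice were male, and mice of the open field test were about 3 months old. Whether a library holds 1 mouse or a pool and whether blood was flushed out before dissection are not given in the sources used here. By label, replicate 2 of RGFP109 and replicate 2 of vehicle came from amygdala and the other 6 libraries from cortex.

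The alpha copies and the beta copies were nearly identical, which limits how well reads can be assigned to one copy. In the transcripts of GENCODE M21 (GRCm38), the coding sequences of Hba-a1 (ENSMUSG00000069919) and Hba-a2 (ENSMUSG00000069917) had 429 bases each and differed at 1 base, C381T, counted from the A of the start codon. Those of Hbb-bs (ENSMUSG00000052305) and Hbb-bt (ENSMUSG00000073940) had 444 bases each and differed at 1 base, C417T. Both differences fall on the third base of a codon and leave the encoded amino acid the same. The 60 coding bases around each difference are shown because this is the only coding position at which a read can tell the copies apart. All 4 lie in exon 3, and the capital marks the base that differs.
Hba-a1, chr11:32284313-32284372, plus strand: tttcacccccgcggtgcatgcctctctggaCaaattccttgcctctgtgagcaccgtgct
Hba-a2, chr11:32297130-32297189, plus strand: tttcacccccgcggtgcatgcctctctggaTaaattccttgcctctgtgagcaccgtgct
Hbb-bs, chr7:103826665-103826724, minus strand: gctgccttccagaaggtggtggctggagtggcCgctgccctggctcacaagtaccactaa
Hbb-bt, chr7:103812656-103812715, minus strand: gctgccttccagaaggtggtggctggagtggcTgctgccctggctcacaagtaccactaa

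Reads of the study were 120 bases long. Of all 120-base windows in the Hba-a1 transcript, 51.6% were also found in Hba-a2, and 68.7% of those in Hba-a2 were found in Hba-a1. For the beta pair the shares were 61.1% of Hbb-bs windows and 53.3% of Hbb-bt windows. How the authors' counting treated reads that fit both copies is not given in the sources used here, so the split between copies is uncertain. If such reads were left out, the sum of a pair is too low as well, and the loss may differ between the pairs. Levels set between the alpha pair, the beta pair and Alas2 carry this limit.

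Upstream of their starts, the members differ in the short motifs they hold. In the 130 bases before each start (RefSeq, GRCm38.p6), all 4 globin genes held 3 short motifs on the coding strand. These were the letters TATAA of the TATA box, the letters CCAAT of the box of that name, and the letters CACCC of the CACC box known from globin promoters. Over windows of this length before 32851 gene starts, 12.7% held TATAA, 22.4% held CCAAT and 33.7% held CACCC, searched on both strands. The Alas2 window held neither TATAA nor CCAAT, but held CACCC at 3 places and GATAA once, all on the opposite strand. GATAA, the core of the sites of GATA factors, was found in 11.4% of windows and in none of the 4 globin windows. The windows of Hba-a1 and Hba-a2 shared a run of 127 of 130 bases, and those of Hbb-bs and Hbb-bt shared no run longer than 14. The part of the window that no GENCODE M21 exon of the gene covers is shown for 1 alpha gene, 1 beta gene and Alas2, with the searched motifs in capitals. In Alas2 the capitals are TTATC, the opposite strand of GATAA.
Hba-a2, chr11:32296362-32296488, plus strand: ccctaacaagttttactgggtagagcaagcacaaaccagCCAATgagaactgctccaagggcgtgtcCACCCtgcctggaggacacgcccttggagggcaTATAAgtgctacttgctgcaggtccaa
Hbb-bs, chr7:103827929-103828011, minus strand: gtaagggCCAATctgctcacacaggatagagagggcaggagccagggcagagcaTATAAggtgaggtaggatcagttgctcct
Alas2, chrX:150547287-150547374, plus strand: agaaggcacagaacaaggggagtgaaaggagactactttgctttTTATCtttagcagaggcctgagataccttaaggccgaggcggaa

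A library held 15902013 to 21712033 counts on genes, of which 3.59% to 4.55% fell on mitochondrial genes. Several libraries stood apart in tissue markers. Summed over 10 choroid plexus markers, which are led by the thyroxine carrier Ttr, the level was 16.7 CPM (counts scaled to a library of 1000000) in RGFP109 replicate 2, 19.5 in vehicle replicate 2, 47.7 in vehicle replicate 1, 51.3 in PTS + RS replicate 2 and between 1565 and 3936 in the other 4 libraries. Summed over 10 olfactory bulb markers, the level was 1932 CPM in vehicle replicate 1 and between 144 and 185 in the other 7. Taken as lists, markers of cortex and amygdala did not follow the tissue labels of the RGFP109 and vehicle libraries. The 12 cerebral cortex markers summed to 1050 and 1112 CPM in the cortex-labelled libraries and to 1702 and 1472 CPM in the amygdala-labelled ones. The 12 amygdala markers summed to 184 CPM in RGFP109 replicate 1, to 674 CPM in vehicle replicate 1, and to 259 and 268 CPM in the amygdala-labelled libraries. Of the 674 CPM, 628 were of Meis2, which the olfactory bulb also expresses. Between amygdala- and cortex-labelled libraries, 9 of 10 tested amygdala markers had log2 fold changes above 0, with a median of 0.64, and so had 10 of 12 cortex markers, with a median of 0.75. Single markers differed more, from -0.44 to 6.05 among the amygdala markers and from -0.46 to 2.56 among the cortex markers. None of them was called. Those libraries are therefore called by their label and replicate number.

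Hemoglobin transcripts were present in all 8 libraries, at levels that spanned 298-fold. Summed over the 4 globin genes, 40.0 and 35.3 of every 1000000 counts on genes were hemoglobin counts in PTS + RS replicates 1 and 2, and 59.9 and 44.5 in RS replicates 1 and 2. In RGFP109 the values were 1.43 (Wilson 95% interval 0.95 to 2.14) in replicate 1 and 123 (118 to 127) in replicate 2, and in vehicle they were 12.9 (11.3 to 14.7) in replicate 1 and 425 (416 to 434) in replicate 2. The libraries of PTS + RS and RS lay within 1.70-fold of each other, while RGFP109 and vehicle held both the lowest and the highest libraries. These intervals cover counting error only.

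Within each table, levels were compared as CPM scaled by the TMM library size, a factor set separately in the 2 tables. Hbb-bs, the major beta gene, stood at 17.2 and 16.3 CPM in PTS + RS, at 30.5 and 21.5 in RS, at 0.82 and 64.0 in RGFP109 and at 7.11 and 229 in vehicle, replicate 1 first. Hba-a1, the major alpha gene, stood at 16.8 and 17.1 CPM in PTS + RS, 25.1 and 20.2 in RS, 0.63 and 49.2 in RGFP109, and 4.38 and 158 in vehicle. Both genes were thus lowest in RGFP109 replicate 1 and highest in vehicle replicate 2. Hbb-bt, the minor beta gene, stood at 1.93 and 1.38 CPM in PTS + RS, 1.55 and 1.83 in RS, 6.03 in RGFP109 replicate 2, and 0.63 and 27.3 in vehicle. Hba-a2 stood at 3.27 and 1.32 CPM in PTS + RS, 2.87 and 1.07 in RS, 5.19 in RGFP109 replicate 2, and 0.34 and 12.7 in vehicle. RGFP109 replicate 1 had 0 counts of both minor copies, which allows a level of up to 0.19 CPM, the value of 3 counts there. Alas2 stood at 1.63 and 1.26 CPM in PTS + RS, 0.88 and 0.82 in RS, 0.19 and 2.34 in RGFP109, and 0.46 and 10.8 in vehicle, and its count of 3 in RGFP109 replicate 1 was its lowest.

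**Figure D1:**
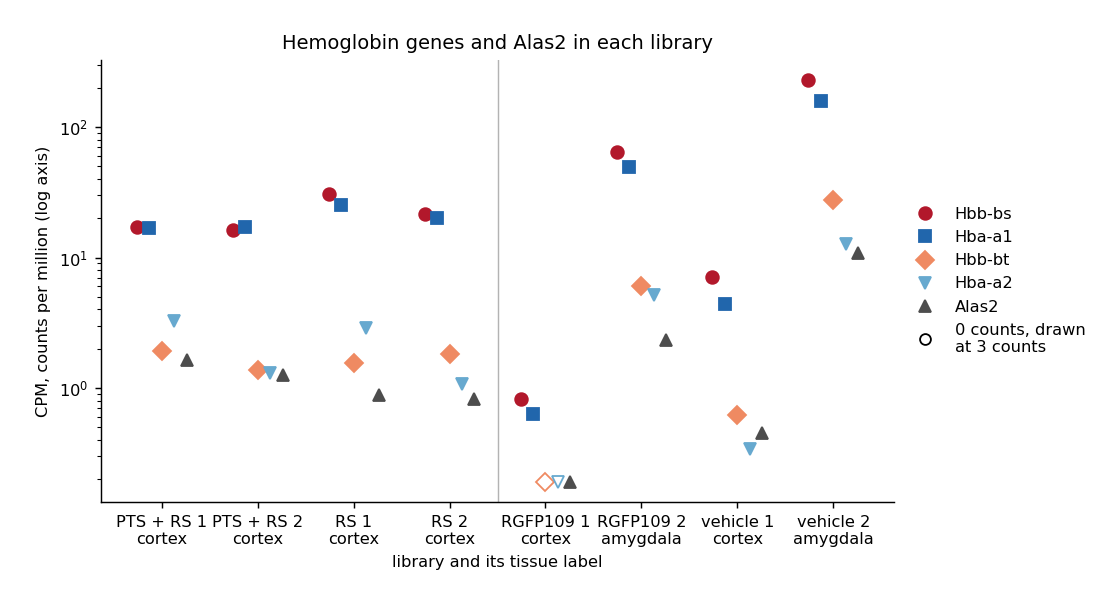
CPM of each member (log axis) in each of the 8 libraries, with the tissue label under the library name, 1 symbol per gene and library, and open symbols for 0 counts drawn at the value of 3 counts. The 4 libraries of PTS + RS and RS lie close together, and the amygdala-labelled libraries lie above the cortex-labelled ones for every member.

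Between genes, levels were compared on the deposited FPKM, which divides by gene length. Reads that fit both copies of a pair may be missing from it, and the order of the genes carries this limit. Hbb-bs had the highest FPKM of the members in all 8 libraries and Hba-a1 the next, with 22.2 against 20.4 and 21.1 against 20.9 in PTS + RS and 297 against 194 in vehicle replicate 2. In PTS + RS these neighbours in the order lay closer to each other than in any other group. Hba-a2 and Hbb-bt followed, and their order changed from library to library, with FPKM of 4.85 against 2.71 in PTS + RS replicate 1, 4.28 against 2.19 in RS replicate 1 and 18.9 against 38.8 in vehicle replicate 2. Alas2 had the lowest FPKM in 7 of 8 libraries, from 0.19 to 4.46 there, and it was above the minor copies only in RGFP109 replicate 1, where both were listed at 0.

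PTS + RS was compared with RS to find what a stroke adds to restraint stress. Hbb-bs was fitted at 0.643 times the RS level, Hba-a1 at 0.746 times and Alas2 at 1.69 times, and for these genes the libraries of the groups did not overlap. A gene counted as called when the quasi-likelihood test of edgeR gave a Benjamini-Hochberg adjusted p below 0.05 over all genes tested and the log2 fold change was 1 or more in either direction. None of the 5 members was called, against 2.21% of the 17581 genes tested, and 2 of 5 had an unadjusted p under 0.05, against 17.9% of all genes. Groups that do not overlap were found for 3 of 5 members and for 50.2% of all genes, which is near this background.

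For Hbb-bs the log2 fold change was -0.64 ± 0.18 (SE), with an adjusted p of 0.118 by edgeR's quasi-likelihood test. For Hba-a1 it was -0.42 ± 0.14, with an adjusted p of 0.188. Hba-a2 had a log2 fold change of 0.20 ± 0.57 and Hbb-bt one of -0.03 ± 0.36, with adjusted p of 0.896 and 0.979. The libraries of both groups overlapped for these minor copies, and their spread was as large as any difference. Alas2 had a log2 fold change of 0.76 ± 0.40, with an adjusted p of 0.375. Alas2 thus lay on the other side of 0 from the major globin genes. The median log2 fold change was -0.03 over the members and -0.002 over all genes.

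The difference in the major globin genes leaned on RS replicate 1, the library with the most hemoglobin counts of its table. Hbb-bs had 553 counts there against 341 in RS replicate 2, and without RS replicate 1 its log2 fold change was -0.37 with an adjusted p of 0.625. Without PTS + RS replicate 1 it was -0.68 with an adjusted p of 0.030, and without RS replicate 2 it was -0.87 with an adjusted p of 0.029, in both cases under the fold threshold. Hba-a2 changed sign without PTS + RS replicate 1, to -0.60, and without RS replicate 2, to -0.33. The 4 globin genes together took 37.6 ± 3.29 (SD, n = 2) of 1000000 counts in PTS + RS and 52.2 ± 10.9 in RS, a ratio of 0.721 with an exact two-sided permutation p of 0.333, the smallest that 2 against 2 libraries allow. In bulk tissue, fewer red cells and less RNA per cell cannot be told apart.

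Other genes of blood and vessels lay on both sides of 0 in this comparison. All 12 endothelial markers were tested, and none was called, with a median log2 fold change of 0.24. Of 14 platelet markers 6 were tested and none was called. Of 10 blood monocyte markers 2 were tested, both lay below 0 like the major globin genes, and neither was called. Their groups did not overlap, which held for 50.2% of all genes. Nr4a1, an immediate early gene that neurons also express, had a log2 fold change of -0.75 ± 0.14 (adjusted p 0.040 by edgeR), under the fold threshold. Ace, the angiotensin converting enzyme, which choroid plexus also expresses, had one of -1.52 ± 0.61 (adjusted p 0.252). Of 15 neutrophil markers 4 were tested and 2 were called, both higher in PTS + RS. These were Lcn2, an iron-siderophore binding protein, and Csf3r, the receptor of granulocyte colony-stimulating factor. Both are also expressed by activated brain cells. Of 12 T and B cell markers, Ighm, the heavy chain of IgM, was called higher, as were all 12 microglia markers and 2 of 12 astrocyte markers, Gfap and Aqp4. All 10 choroid plexus markers had log2 fold changes below 0, with a median of -1.81, and none was called. Their summed level was 1681 and 51.3 CPM in PTS + RS and 1897 and 3936 CPM in RS, and the part of choroid plexus tissue, which is rich in vessels, in the globin values was not tested.

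**Figure D2:**
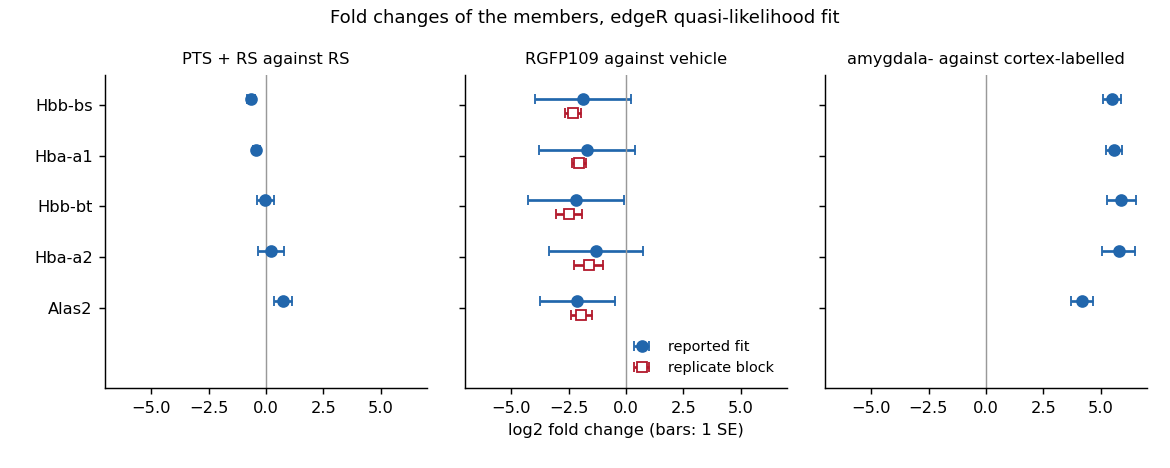
Log2 fold change of each member with its SE in the 3 comparisons, from the edgeR fit (filled points) and, for RGFP109 against vehicle, with the replicate number as a block (open squares). The members lie near 0 on the left, below 0 with wide errors in the middle, and between 4.19 and 5.89 on the right.

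RGFP109 was compared with vehicle in PTS + RS mice to find what HDAC3 inhibition changes. All 5 members were lower with RGFP109 in the fit, with log2 fold changes from -1.30 to -2.18, and none was called, as was 0% of the 17565 genes tested. Neither DESeq2 nor limma-voom called a gene, and 206 genes (1.17%) had an unadjusted p under 0.05 in edgeR against 433 in DESeq2, none of the members among the 206. For Hbb-bs the log2 fold change was -1.86 ± 2.08 and for Hba-a1 it was -1.70 ± 2.08, with an adjusted p of 0.9997 by edgeR for both. The groups overlapped for each member, since RGFP109 replicate 2 lay above vehicle replicate 1. Groups did not overlap for 26.6% of all genes. The median over the members was -1.86, against -0.02 over all genes.

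In this fit, which does not pair the libraries, the sign rested on vehicle replicate 2. Without that library the only vehicle library left was cortex-labelled, and the log2 fold changes of all 5 members turned positive, from 1.51 to 2.94, with adjusted p of at least 0.664. Within each replicate number, that is within each tissue label, RGFP109 was lower than vehicle in the summed globin level. The summed globin level was 8.54 times higher in vehicle than in RGFP109 in replicate 1 (exact 95% interval on the counts 5.55 to 13.8) and 3.43 times higher in replicate 2 (3.29 to 3.59). For Hbb-bs the ratios were 8.62 (4.86 to 16.6) and 3.58 (3.37 to 3.81), and for Hba-a1 they were 6.91 (3.56 to 15) and 3.21 (2.99 to 3.45). Hbb-bt was at least 3.29-fold higher in vehicle in replicate 1, set against 3 counts, and 4.54 times higher in replicate 2. Hba-a2 was at least 1.79-fold higher in replicate 1 and 2.44 times higher in replicate 2. For Alas2 the ratio was 2.39 in replicate 1 with an interval from 0.57 to 14 that includes 1, and 4.61 (3.36 to 6.42) in replicate 2. These intervals compare single libraries and say nothing of the spread between mice.

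With the replicate number as a block, the fitted values moved little and their errors shrank. Hbb-bs then had a log2 fold change of -2.29 ± 0.35 and Hba-a1 one of -2.04 ± 0.32, with unadjusted p of 0.0017 and 0.0018, and every adjusted p was 0.9999. The block left 1 residual degree of freedom and called no gene at all among 17565. The vehicle and RGFP109 libraries of replicate 1 also differed in tissue markers, with 10 choroid plexus markers at 1565 CPM in RGFP109 and 47.7 CPM in vehicle, and 10 olfactory bulb markers at 175 and 1932 CPM. In replicate 2 the same lists stood at 16.7 against 19.5 CPM and at 144 against 174 CPM. The part of these tissues in the globin difference was not tested.

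**Figure D3:**
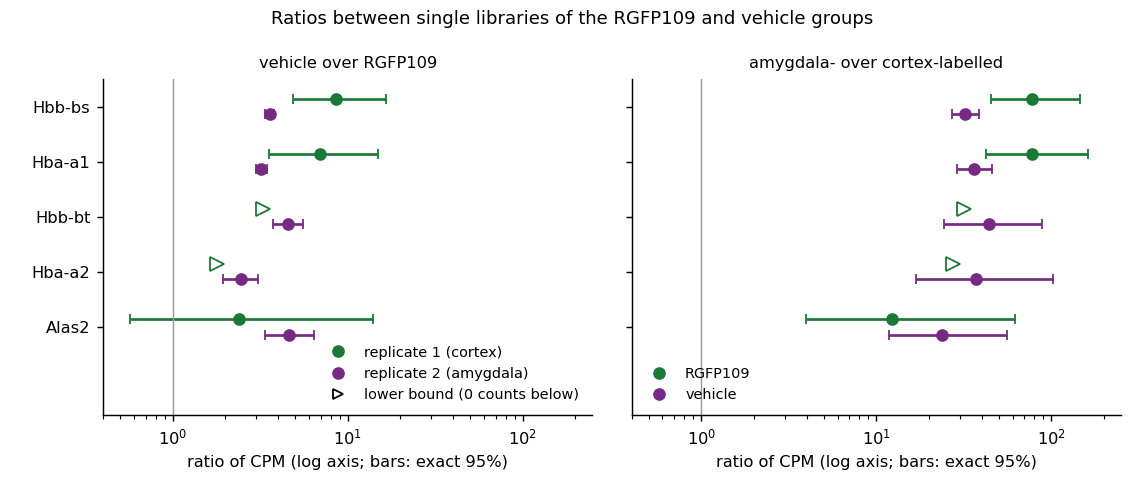
Ratio of CPM (log axis) between single libraries for each member, with vehicle over RGFP109 within each replicate number on the left and amygdala-labelled over cortex-labelled within each treatment on the right. Bars are exact 95% intervals on the counts, and open triangles are lower bounds set against 3 counts where the lower library had 0.

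The widest differences lay between the amygdala-labelled and the cortex-labelled libraries of the same 4, where tissue label and replicate number are the same split and cannot be told apart. With treatment as a covariate, the log2 fold change of amygdala- over cortex-labelled libraries was 5.58 ± 0.35 for Hba-a1, 5.49 ± 0.38 for Hbb-bs, 5.89 ± 0.64 for Hbb-bt, 5.79 ± 0.72 for Hba-a2 and 4.19 ± 0.49 for Alas2. These correspond to folds of 47.8, 45.0, 59.4, 55.4 and 18.2. The fit has the same terms as the replicate block and leaves 1 residual degree of freedom, so these errors are poorly determined. Without treatment as a covariate the errors were larger, with log2 fold changes of 5.35 ± 1.05 for Hba-a1 and 5.19 ± 1.17 for Hbb-bs. Alas2 then had one of 4.29 ± 0.98. Fits of Hbb-bt and Hba-a2 rest on a library with 0 counts, and their values depend on the prior count. The median over the members was 5.58, against -0.01 over all genes. As a ratio of single libraries the median was 36.1 within vehicle and at least 31.7 within RGFP109, where the minor copies entered at their lower bound.

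None of the members was called by edgeR, as was 0% of 17565 genes, with adjusted p of 0.183 for Hba-a1 and Hbb-bs, 0.287 for Hbb-bt and 0.292 for Hba-a2 and Alas2. All 5 had an unadjusted p under 0.05, against 9.15% of all genes, and by p Hba-a1 ranked 2 and Hbb-bs ranked 5 among the 17565. DESeq2 called all 5 members higher, against 1.19% of all genes in either direction and 0.888% higher, with adjusted p from 3.1e-37 for Hbb-bs to 0.00021 for Alas2. That fit used the same terms and so also left 1 residual degree of freedom. Without a filter on low counts edgeR also called all 5, against 0.85% of 28229 genes. The call therefore depends on the tool and on the filter, while the direction did not. In every member both amygdala-labelled libraries lay above both cortex-labelled ones, which held for 21.6% of all genes in this direction.

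The same direction was seen under both treatments. Within vehicle the summed globin level was 34.3 times higher in the amygdala-labelled library (exact 95% interval 30.0 to 39.4), and within RGFP109 it was 85.3 times higher (56.7 to 135). Hba-a1 was 36.1 times higher within vehicle and 77.6 times higher within RGFP109. Alas2 was 23.7 times higher within vehicle (11.8 to 55.6) and 12.3 times higher within RGFP109 (3.97 to 61.6), where the cortex-labelled library held 3 counts. Hbb-bt was 43.7 times higher within vehicle and at least 31.7-fold higher within RGFP109, and Hba-a2 was 37.1 times and at least 27.3-fold higher. Over libraries, hemoglobin took 274 ± 214 of 1000000 counts under the amygdala label and 7.17 ± 8.13 under the cortex label (SD, n = 2), with an exact two-sided permutation p of 0.333, the smallest possible.

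Summed over each list, markers of other blood cells and of vessels moved less, while single genes of these lists moved further. The 12 endothelial markers summed to between 385 and 486 CPM in all 8 libraries, a range of 1.26-fold, while the 5 members ranged over 266-fold. The 14 platelet markers ranged over 1.53-fold, from 9.88 to 15.1 CPM, and were at 0.775 times in vehicle replicate 2 the level of vehicle replicate 1. The 7 platelet markers tested had log2 fold changes from -2.40 to 2.69 between the labels. The 10 blood monocyte markers ranged over 3.37-fold, from 68.9 to 232 CPM, and were at 0.675 times in vehicle replicate 2 the level of vehicle replicate 1. In the RGFP109 and vehicle libraries most of this sum was of Nr4a1, at a mean of 141 CPM, and Ace, at 34.3 CPM. Neurons and choroid plexus also express these genes. Of the 3 tested, Nr4a1 and Ace had log2 fold changes of -0.07 and -0.17 between the labels. Ccr2, at a mean of 1.40 CPM, had one of 0.61. The 15 neutrophil markers were 4.41 times higher under the amygdala label within vehicle and 2.33 times higher within RGFP109, and the 12 T and B cell markers 3.74 and 3.63 times higher. Only 4 and 2 of them were tested. Most of the neutrophil sum was of Csf3r and Lcn2, at means of 12.3 and 10.2 CPM. Most of the T and B cell sum was of Ighm and Cd4, at 14.9 and 5.71 CPM. Of these, Lcn2 had a log2 fold change of 4.5 and Cd4 one of 5.04, both above the 4.19 of Alas2, with adjusted p of 0.393 and 0.189 by edgeR. Of the 12 microglia markers, 11 were higher under the amygdala label, with a median log2 fold change of 0.80. Choroid plexus and olfactory bulb markers moved the other way, with medians of -2.24 and -3.01. No gene of any of these lists was called by edgeR, and their part in the hemoglobin difference was not tested.

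**Figure D4:**
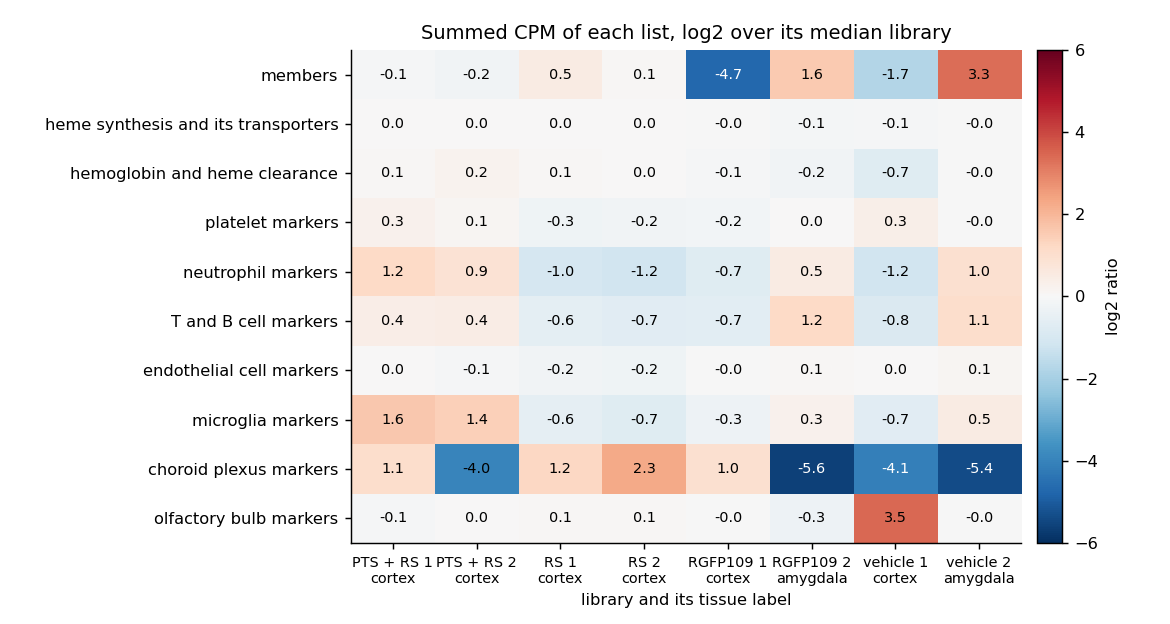
Summed CPM of the members and of 9 gene lists in each library, as the log2 ratio to the median of that list over the 8 libraries (red higher, blue lower). The row of the members runs from -4.71 in RGFP109 replicate 1 to 3.34 in vehicle replicate 2, while the endothelial row runs from -0.24 to 0.09.

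While the summed level ranged over 298-fold, the share of the alpha genes among the globin counts ranged from 37.9% to 51.1%, with a median of 45.2%. The alpha genes made up 51.1% and 51.0% of the globin counts in PTS + RS, 46.6% and 47.7% in RS, 43.5% and 43.7% in RGFP109 and 37.9% and 40.0% in vehicle. In the 2 libraries with the most hemoglobin counts the Wilson 95% intervals did not overlap, with 41.8% to 45.6% in RGFP109 replicate 2 and 38.9% to 41.1% in vehicle replicate 2. Per length, the FPKM of the alpha pair over that of the beta pair was 1.01 and 0.99 in PTS + RS, 0.84 and 0.86 in RS, 0.73 and 0.74 in RGFP109 and 0.58 and 0.63 in vehicle. Both the share and the FPKM ratio depend on how reads that fit both copies were counted. Replicates of a group were closer to each other in the FPKM ratio than to any other group, also where their hemoglobin levels were far apart. Counting error alone did not separate all groups, however. The intervals of the share overlapped between PTS + RS replicate 1 (47.3% to 54.9%) and RS replicate 2 (44.0% to 51.4%). Vehicle replicate 1 (31.7% to 44.5%) overlapped RGFP109 replicate 2. The share of RGFP109 replicate 1 rests on 23 counts (25.6% to 63.2%).

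The minor copies took a small part of each pair, which varied between libraries. Hbb-bt made up between 4.82% and 10.7% of the beta counts in the 7 libraries other than RGFP109 replicate 1, and Hba-a2 between 5.04% and 16.3% of the alpha counts. For Hba-a2 the share was 16.3% (12.8% to 20.6%) and 7.17% (4.78% to 10.6%) in PTS + RS and 10.3% (7.91% to 13.2%) and 5.04% (3.17% to 7.93%) in RS, so that it was the higher in replicate 1 of both groups. In RGFP109 replicate 1 both minor copies had 0 counts, of 10 alpha and 13 beta counts, which allows shares of up to 27.8% and 22.8%, too wide to set against the other libraries. Alas2 made up 4.01% and 3.37% of the counts of the 5 members in PTS + RS and 1.45% and 1.81% in RS. In vehicle the Alas2 share was 3.52% and 2.46%, and in RGFP109 it was 11.5% (4.0% to 29.0%) and 1.84%.

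**Figure D5:**
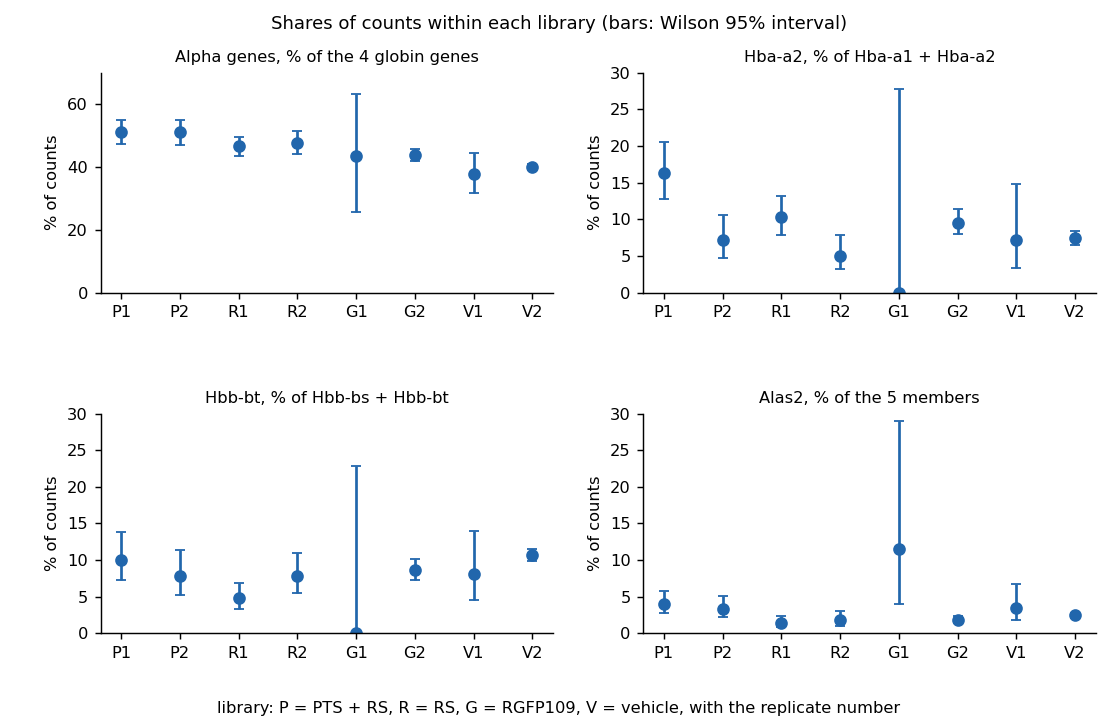
Shares of counts within each library in %, with Wilson 95% intervals, for the alpha genes among the 4 globin genes, for the minor copy of each pair and for Alas2 among the 5 members. The wide bars of RGFP109 replicate 1 rest on 26 counts in all.

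The remaining genes of heme synthesis showed no such spread. The list of 16 heme synthesis enzymes and transporters summed to between 486 and 538 CPM, a range of 1.11-fold, and all 16 were tested without a call in any of the 3 comparisons. Alas1, the form of other cells, stayed between 48.9 and 64.3 CPM, and Fech, which inserts iron into the ring in the last step, between 50.1 and 60.9 CPM. Red cell genes that are abundant in precursors were at or near 0. Slc4a1, the anion exchanger of the red cell membrane, had at most 10 counts, and these were in vehicle replicate 2. Klf1, the erythroid factor that acts on beta globin, had at most 6 counts. Gata1, an erythroid transcription factor, had at most 1 count in the 4 libraries of PTS + RS and RS, and Ahsp was not analysed here. Of 34 red cell membrane and erythroid genes, 15 were tested in PTS + RS against RS, and Tent5c, a poly(A) polymerase, was called higher with a log2 fold change of 1.99 ± 0.33 (adjusted p 0.023 by edgeR). None of the 16 tested was called in the other comparisons.

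Most other globin genes were at trace levels. Hba-x, Hbb-bh0, Hbb-bh1, Hbb-bh2 and Hbb-bh3 had 0 counts in the 4 libraries of PTS + RS and RS, and embryonic Hbb-y had at most 2 counts in any library. The theta genes Hbq1a and Hbq1b had at most 13 and 15 counts, and Mb, the oxygen store of muscle, at most 26. Ngb, the globin of neurons, had its lowest level in vehicle replicate 1, at 1.02 CPM (18 counts), and its highest in vehicle replicate 2, at 5.49 CPM (101 counts), with 3.42 and 4.02 CPM in RGFP109. The amygdala-labelled libraries were thus the higher ones for Ngb, as for the members, with a log2 fold change of 1.26 ± 0.64 (adjusted p 0.662 by edgeR). Cygb, a globin of many cell types, ranged from 43.0 to 60.8 CPM. Cygb stood at 59.4 and 51.4 CPM in vehicle replicates 1 and 2, between which Hbb-bs differed 32.2 times. Hbb-b1 and Hbb-b2, the names of other beta haplotypes, were not analysed here.

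Among genes that bind or break down free hemoglobin and heme, 1 was called. Hmox1, heme oxygenase, stood at 12.8 and 18.6 CPM in PTS + RS and at 4.69 and 3.6 CPM in RS, and it was called higher with a log2 fold change of 1.91 ± 0.24 (adjusted p 0.0084 by edgeR). The other 8 of 9 tested clearance genes were not called. Of these, Ftl1 had a log2 fold change of 0.92 ± 0.097 (adjusted p 0.0038 by edgeR), under the fold threshold. Cd163, the macrophage receptor for hemoglobin bound to haptoglobin, had a log2 fold change of 0.74 ± 0.29 (adjusted p 0.241). It stood at 8.83 and 8.75 CPM in the amygdala-labelled libraries and at 3.23 and 3.81 CPM in the cortex-labelled ones, with an adjusted p of 0.406. Hp and Hpx, the plasma carriers of hemoglobin and heme, had at most 14 and 17 counts, and Lrp1, the receptor for heme bound to hemopexin, ranged from 650 to 867 CPM.

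Genes whose pattern over the 8 libraries was most like the mean of the members were found by the root mean square difference in log2 CPM, centred within each table, among 16922 genes. The members themselves lay at 0.26 to 0.68 from their mean. Each member is a part of that mean, so these distances cannot be set against those of other genes. The nearest other gene was Adora2a, an adenosine receptor, at 0.74, followed by Gm38357, Ptprv, Sh3rf2, Gm43339, Scn4b, AC154763.2, Gm48267, Drd2 and Gucy1a2, the last at 1.01. The median over all genes was 1.98. Adora2a stood at 2.16 and 45.1 CPM in RGFP109 and at 7.34 and 49.9 CPM in vehicle, and Drd2, a dopamine receptor, at 3.17 and 39.0 CPM and at 3.64 and 37.6 CPM. Scn4b, a sodium channel subunit, stood at 19.0 and 321 CPM in RGFP109 and at 17.5 and 292 CPM in vehicle. These genes shared the split by tissue label, but in replicate 2 they were nearly level between RGFP109 and vehicle, where Hbb-bs was 3.58 times higher in vehicle. Which tissue or cell type they come from, and its part in the hemoglobin difference, was not tested.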

How the data were processed

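Paired-end reads were mapped by the authors with STAR 2.4.0 on GRCm38, and HTSeq 0.6.1 gave the reads per gene. They deposited counts per gene and library without normalization, and FPKM, which they calculated from the counts and gene length. The labels name a NEBNext directional kit and the methods another kit, and the counting of strand is not given in the sources used here. The deposited fold changes and p-values of the authors' own comparisons, and 8 columns of normalized signal per library, were not used. The authors also name limma.

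Libraries were grouped by their labels. Counts passed filterByExpr, were scaled by TMM and were tested by edgeR 4.0.16 (glmQLFit) in R 4.3.3, with Benjamini-Hochberg adjustment over all genes tested and the thresholds 0.05 for the adjusted p and 1 for the log2 fold change. Nothing says that replicates are separate mice, so p-values measure only the spread between these libraries, which may be technical. All 5 members passed the filter in both tables. The alternatives were DESeq2 1.42.0, limma-voom (limma 3.58.1), another scaling, other filters, summed globin copies, a replicate block, the tissue label without treatment and leaving out each library. Ratios between single libraries have exact 95% intervals and shares have Wilson 95% intervals, and 0 counts are read as up to 3 counts. Likeness added 0.1 CPM before the log2. Sequences came from GENCODE M21 transcripts and RefSeq promoter windows, and all 5 members have the same coordinates in the deposited table and in GENCODE M21.

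Named genes were the 5 members, other globin genes, fixed genes of heme and red cells, called genes of 17 lists, up to 4 a direction, or their most abundant genes, and the 10 genes most like the members. The members and lists were chosen with earlier results of these data known. In PTS + RS against RS 6 of the 17 lists held a called gene and 11 held none, and in the other comparisons none did. With the replicate number, the deviations of same-numbered libraries correlated at r = 0.035 in the PTS + RS and RS table and at r = 0.299 in the RGFP109 and vehicle table. In the latter the number follows the tissue label in GEO. The main fit of RGFP109 against vehicle did not pair the libraries. Pairing by label entered only through the replicate block and the ratios within a replicate number. Scripts were tested on simulated data.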

Additional observations from a re-analysis of the deposited data

How the results depend on the processing

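No member was called in PTS + RS against RS or in RGFP109 against vehicle under any alternative. In PTS + RS against RS the adjusted p of Hbb-bs by edgeR passed 0.05 without a filter (0.000676), without PTS + RS replicate 1 (0.030) and without RS replicate 2 (0.029), at log2 fold changes of -0.65, -0.68 and -0.87, short of the size a call needs. Of 20 log2 fold changes of members without 1 library in PTS + RS against RS, 4 reversed. Hba-a2 ranged from -0.60 without PTS + RS replicate 1 to 1.08 without RS replicate 1, and was -0.33 without RS replicate 2. Hbb-bt ranged from -0.29 without PTS + RS replicate 1 to 0.19 without PTS + RS replicate 2, and was 0.09 without RS replicate 2. All 31 values under other alternatives kept their sign. For RGFP109 against vehicle, in fits that do not pair the libraries, leaving out vehicle replicate 2 reversed all 5 members, and leaving out RGFP109 replicate 2 gave the lowest values. Hba-a1 ranged from -6.99 to 2.53, Hba-a2 from -9.82 to 2.94, Hbb-bs from -7.15 to 2.21, Hbb-bt from -10.92 to 2.29 and Alas2 from -4.83 to 1.51, and the median from -7.15 to 2.29. The lowest values of Hba-a2 and Hbb-bt rest on a library with 0 counts. For amygdala- against cortex-labelled libraries the median ranged from 5.18 to 6.28 without 1 library, where no test was left, and 16 of 20 member values moved by more than the residual SD of the members' median level. Hba-a1 ranged from 5.18 to 6.28, Hba-a2 from 5.19 to 9.59, Hbb-bs from 5.01 to 6.28, Hbb-bt from 5.44 to 9.81 and Alas2 from 3.58 to 4.55, with the highest globin values without a vehicle library. DESeq2 and the fit without a filter each called 5 members against 0. The cause of these differences was not tested.

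With the replicate block the log2 fold change of Hbb-bs was -0.62 in PTS + RS against RS (adjusted p 0.053 by edgeR), where the labels tie the number to nothing shared, and -2.29 in RGFP109 against vehicle. The block changed no call of a member. Over all genes it moved the calls in PTS + RS against RS from 373 higher and 16 lower to 443 and 32. Without a filter these calls were 604 higher and 155 lower of 30105 genes. With 0 to 13 counts of each member in RGFP109 replicate 1, depth limits every value of that library.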

Other observations

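Vehicle replicate 1 and the PTS + RS libraries carry the same labels of strain, tissue, day and injury, and differ in the vehicle injections and in the table that holds them. Hemoglobin took 12.9 of 1000000 counts on genes in vehicle replicate 1 (Wilson 95% interval 11.3 to 14.7) and 40.0 and 35.3 in the PTS + RS libraries. Vehicle replicate 1 was also the library with 1932 CPM of olfactory bulb markers, and the part of this in its lower hemoglobin share was not tested. The difference between the tables was not tested either.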
